A study of Mus musculus with 15 samples.

Results

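Mouse hematopoietic stem cells (HSCs) that had kept less of a histone label (bin GFP3) were compared with those that had kept the most (bin GFP4), the first step of label loss in this series. All 3 libraries of GFP3 and all 3 of GFP4 were used, 6 of 15 libraries in the series, and they were paired by replicate number. A gene was tested where 3 or more libraries of the series gave it a linear value (the logarithm undone and 1 subtracted) of 1 or higher, which kept 27994 of 31298 genes in the file. All mice carried hCD34-tTA x TetO-H2BGFP, a histone H2B fused to green fluorescent protein and switched on by a transactivator under human CD34 regulatory sequence, and all received doxycycline in the drinking water. In both bins, replicate I came from mice aged 5 months after 12 weeks of doxycycline, replicate II from mice aged 5.5 months after 14 weeks and replicate III from mice aged 6.5 months after 16 weeks. GFP2, GFP1 and an undivided HSC sort, Total, had the same strain, ages and doxycycline times. All came from one gate of bone marrow HSCs, negative for lineage markers, CD48 and Flk2 and positive for Sca1, c-Kit and CD150. The labels do not say which end of the bin numbers holds the most label, so it is an assumption here that GFP4 holds the most. They also do not say whether a library pools several mice or whether same-numbered libraries share mice, so a p-value speaks only of the spread among libraries as sorted.

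Most HSCs of an adult mouse are out of the cell cycle and divide rarely. Doxycycline stops production of the labelled histone, so a cell that divides passes part of its label to each daughter and its fluorescence falls step by step. A cell in the upper bin is therefore taken to have divided less since the switch than a cell in the bin below it. That reading rests on the assumed order of the bins, and the expression values do not measure divisions. Leaving quiescence runs through G1 phase, where cyclin D with CDK4 or CDK6 relieves the block by the retinoblastoma protein, then through DNA synthesis in S phase, and on to G2 and mitosis. The comparison asks which transcripts differ at the first step of label loss that the bins resolve.

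Each library carried the transcripts of the sorted population. Levels are the deposited quantile-normalized log2 values. The stem cell genes Kit, which encodes the receptor for stem cell factor, and Hlf, a transcription factor of HSCs, had log2 values of 15.57 to 16.14 and 14.29 to 14.83 over the 6 libraries. Slamf1, which encodes the gate marker CD150, had 11.17, 11.17 and 11.28 in GFP3 and 11.11, 11.32 and 11.48 in GFP4 (replicates I, II and III). Cd48 and Flt3, whose products were gated out, were still measured at 7.34 to 8.57 and 9.90 to 10.38. Transcripts of other blood cells were present as well, given here in ppm, where 1000000 ppm are all linear values of a library. The 12 neutrophil markers summed to 3916, 5719 and 4070 ppm in GFP3, against 6911, 2664 and 5564 ppm in GFP4. The 12 macrophage markers summed to 308, 724 and 467 ppm in GFP3 and 488, 142 and 186 ppm in GFP4. No marker of either list was at or under a linear value of 1 in all 6 libraries. Replicates II thus stood apart in both lists, with the neutrophil sum lowest in GFP4 II and the macrophage sum highest in GFP3 II. In such bulk libraries, fewer cells of a type and less RNA per cell cannot be told apart.

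Genes that rose in GFP3 HSCs included 9 of 67 listed for G2 and M phase and 2 of 46 listed for S phase, the cell cycle kinase Cdk6 and its inhibitor Cdkn2c, and the megakaryocyte gene Itga2b. Without the replicate block 1 of the G2 and M phase genes and 1 of the S phase genes passed, and without GFP3 I, GFP3 III, GFP4 I or GFP4 III none did. Genes that fell in GFP3 included the RNA-binding protein Igf2bp2, the scaffold protein Ahnak, the retinoic acid-degrading enzyme Cyp26b1 and the growth factor receptor Fgfr3. In a limma fit over all 15 libraries with replicate number as a block, 37 genes were higher in GFP3 and 11 were lower at a Benjamini-Hochberg adjusted p of 0.05, 0.132% and 0.0393% of the genes tested. The GFP3 and GFP4 libraries of these 48 genes did not overlap, and all 3 pairs went the same way. No overlap was seen for 5.55% of all tested genes in the higher direction and 5.84% in the lower. Without the block, 12 genes were higher and 4 lower, 0.0429% and 0.0143%. Over all tested genes the median difference was 0.00, 49.6% were positive (50.2% of those at a mean of at least 10 ppm), and 6.94% had an unadjusted p under 0.05.

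The counts rested on single libraries. The fit called 3 genes higher and 2 lower without GFP3 replicate I, 105 and 10 without GFP3 II, 6 and 11 without GFP3 III, 17 and 17 without GFP4 I, 228 and 57 without GFP4 II, and 4 and 4 without GFP4 III. With each of these 6 libraries left out in turn, 5 of the 48 genes passed every time, namely Cdk6, Slc22a3, Gstm2, Igf2bp2 and Ahnak. Of the 37 higher genes, 24 passed only when a library of replicate II was the one left out.

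Cdk6 passed with each library left out in turn. It encodes the cyclin D-dependent kinase that moves cells from quiescence into G1, and lies at chr5:3341485-3531008 on the plus strand (GRCm38). Its log2 value was 12.43, 12.23 and 12.23 in GFP3 I, II and III, against 11.67, 11.52 and 11.56 in GFP4. All 3 GFP3 libraries stood above all 3 of GFP4, and the pair differences were nearly equal at 0.76, 0.71 and 0.67. Cdk6 was 1.64-fold higher in GFP3 (log2 difference 0.71, SE 0.09, limma adjusted p = 0.00179), and the adjusted p was 0.00736 without the block. Cdkn2c, which encodes p18INK4c, an inhibitor of CDK4 and CDK6, had 9.40, 9.01 and 9.41 in GFP3 and 7.91, 8.53 and 8.58 in GFP4. It rose 1.91-fold (log2 0.93, SE 0.18, adjusted p = 0.0394), and the adjusted p was 0.126 without the block. Left-out libraries other than those of replicate II raised its adjusted p to between 0.138 and 0.399.

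The other genes of G1 entry did not pass. Of 13 cyclins, kinases and regulators listed for G1, 1 rose, 0 fell and 10 were positive, with a median of 0.24. Cdk4 had log2 values of 13.59, 13.50 and 13.48 in GFP3 and 13.32, 13.32 and 13.34 in GFP4, a difference of 0.19 (adjusted p = 0.473). Ccnd1, a D-type cyclin, overlapped between the bins, with 9.20 to 9.71 in GFP3 and 9.34 to 9.84 in GFP4. Myc, a transcription factor that drives growth, was 13.30 to 13.42 in GFP3 and 12.93 to 13.10 in GFP4 (log2 0.34, SE 0.08, adjusted p = 0.105). Both Myc and Cdk4 were without overlap, yet neither passed over all genes. Of 25 genes of quiescence and CDK inhibition, Cdkn2c alone rose, 0 fell, and 17 were negative with a median of -0.10. Cdkn1c, which encodes the HSC quiescence factor p57, had 10.62, 10.96 and 11.28 in GFP3 and 11.59, 11.36 and 11.63 in GFP4. Its GFP3 libraries lay below those of GFP4, but the difference of -0.57 (SE 0.13) had an adjusted p of 0.0981.

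**Figure D1:**
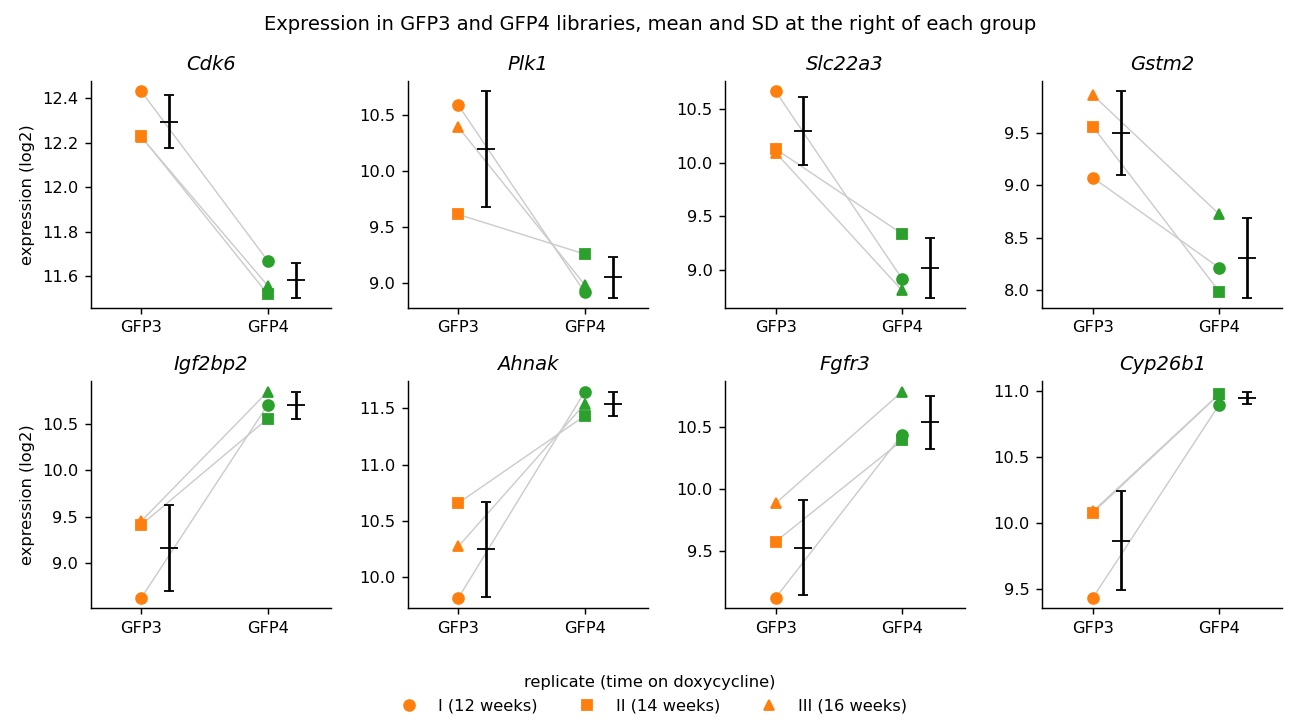
Log2 values (vertical axis, deposited scale) of 8 named genes in each library of GFP3 (left) and GFP4 (right), with lines joining libraries of the same replicate number and the mean and SD of 3 libraries drawn at the right of each bin. Cdk6 differed by 0.67 to 0.76 in every pair, while Plk1 differed by 0.35 in pair II and by 1.68 in pair I.

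Mitotic genes made up more of the genes that rose than any other list. Of 67 genes of the G2 and M phase list, 9 were higher in GFP3 and 0 lower, 66 were positive, and the median difference was 0.89. The 9 were Plk1, Tpx2, Sgol1, Birc5, Kif18b, Cit, Cdca8, Incenp and Racgap1. In 48 of the 67, all GFP3 libraries lay above all GFP4 libraries, against 5.55% of all tested genes and 9.07% of those at a mean of at least 10 ppm. The same list had 1 called gene without the block. It had 0 without GFP3 I, GFP3 III, GFP4 I or GFP4 III, 41 without GFP3 II, and 60 without GFP4 II.

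The promoters of 4 genes of this group are shown because late cell cycle genes are known for a pair of short elements, CCAAT, bound by NF-Y, and the cell cycle homology region (CHR), through which the DREAM complex represses them in resting cells. The sequences are RefSeq's (GRCm38.p6), 250 bases before to 50 after the annotated start, 5′ to 3′ on the strand of the gene, with matches in capitals. Plk1 (chr7:122159185-122159484, plus strand) encodes a kinase of mitotic entry and spindle assembly. Cdca8 (chr4:124936868-124937167, minus strand) encodes borealin of the chromosomal passenger complex. Kif18b (chr11:102925075-102925374, minus strand) encodes a kinesin that shortens astral microtubules. Racgap1 (chr15:99651607-99651906, minus strand) encodes a subunit of centralspindlin, needed for cytokinesis. Cdca7 (chr2:72475969-72476268, plus strand), a chromatin factor of S phase cells, is shown for its E2F match, the element of genes switched on before S phase.
Plk1: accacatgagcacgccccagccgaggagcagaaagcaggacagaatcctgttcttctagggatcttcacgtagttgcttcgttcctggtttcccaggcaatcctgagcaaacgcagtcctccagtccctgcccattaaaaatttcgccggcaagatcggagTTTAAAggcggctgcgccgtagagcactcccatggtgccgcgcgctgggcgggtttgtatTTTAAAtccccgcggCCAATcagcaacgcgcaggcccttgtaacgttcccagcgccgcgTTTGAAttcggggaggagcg
Cdca8: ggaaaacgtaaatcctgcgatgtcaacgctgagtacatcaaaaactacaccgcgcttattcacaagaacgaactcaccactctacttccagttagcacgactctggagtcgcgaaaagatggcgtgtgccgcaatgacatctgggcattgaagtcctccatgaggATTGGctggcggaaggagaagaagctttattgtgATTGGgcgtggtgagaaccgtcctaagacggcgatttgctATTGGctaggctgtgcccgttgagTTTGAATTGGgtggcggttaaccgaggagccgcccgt
Kif18b: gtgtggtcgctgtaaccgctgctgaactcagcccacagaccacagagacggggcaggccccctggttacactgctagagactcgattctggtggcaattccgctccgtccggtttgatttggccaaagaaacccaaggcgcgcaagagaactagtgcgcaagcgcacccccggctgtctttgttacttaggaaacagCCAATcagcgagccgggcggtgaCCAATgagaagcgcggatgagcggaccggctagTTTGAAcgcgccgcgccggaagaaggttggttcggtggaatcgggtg
Racgap1: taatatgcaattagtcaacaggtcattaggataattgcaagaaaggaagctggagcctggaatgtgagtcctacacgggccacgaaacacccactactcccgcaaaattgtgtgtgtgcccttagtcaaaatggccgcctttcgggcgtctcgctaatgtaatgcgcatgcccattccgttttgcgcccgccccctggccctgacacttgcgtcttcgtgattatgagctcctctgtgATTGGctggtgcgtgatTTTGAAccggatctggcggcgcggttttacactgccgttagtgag
Cdca7: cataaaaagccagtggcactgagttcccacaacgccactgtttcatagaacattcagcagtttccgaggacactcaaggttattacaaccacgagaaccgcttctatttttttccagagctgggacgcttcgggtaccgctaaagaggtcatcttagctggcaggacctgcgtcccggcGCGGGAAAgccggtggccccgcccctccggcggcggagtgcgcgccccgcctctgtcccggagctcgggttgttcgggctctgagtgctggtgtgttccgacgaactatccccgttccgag
The motifs searched on both strands were CCAAT, CHR as TTTGAA or TTTAAA, and E2F as TTTCCCGC, TTTGGCGC, TTTCGCGC or TTTGCCGC. In the Cdca8 promoter a CHR match and a CCAAT match on the other strand share a base. Kif18b had its CHR match 4 bases past the start and CCAAT matches beginning 53 and 30 bases before it. Racgap1 had CHR 6 bases past the start and CCAAT 12 bases before it. The 4 genes shown all hold both elements. Among the other called genes of the G2 and M phase list with a promoter found, Birc5 had CHR without CCAAT and Cit had neither. Prim1, the other called S phase gene, had a CCAAT match and no E2F match.

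Promoters were found for 53 of the 67 G2 and M phase genes, as 57 entries. Of these entries 77.2% held a CHR match, 75.4% a CCAAT match and 66.7% both. Over all 32851 promoters of the table the shares were 27.6%, 37.4% and 10.7%. Of 42 entries of the S phase list, 38.1% held an E2F match, against 2.26% of all promoters. Of the 37 higher genes, 27 had a promoter in the table, with 35 entries, 37.1% with CHR, 48.6% with CCAAT and 5.71% with E2F. Sox6 alone gave 6 of these entries and 3 of the 13 with CHR. Of the 11 lower genes 10 had a promoter, with 14 entries, of which 1 held CHR, 4 held CCAAT and 0 held E2F. These are matches of letters in a window of 300 bases and do not show that a factor was bound.

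Plk1 had log2 values of 10.59, 9.61 and 10.39 in GFP3 I, II and III, against 8.91, 9.26 and 8.98 in GFP4. GFP3 I and III stood well above GFP4, and GFP3 II stood just above GFP4 II. Plk1 rose 2.21-fold (log2 1.15, SE 0.18, adjusted p = 0.0181; 0.136 without the block). Tpx2, which activates Aurora A on the spindle, had 11.50, 10.61 and 11.10 in GFP3 and 10.10, 10.16 and 9.82 in GFP4, a 2.06-fold rise (adjusted p = 0.0109). Sgol1 encodes shugoshin, which protects cohesin at centromeres until anaphase. It had 10.05, 9.12 and 9.49 in GFP3 and 8.38, 8.68 and 8.55 in GFP4, a 2.02-fold rise (adjusted p = 0.0173). For all 3, the order of the pairs was the same, with pair II the least changed.

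The chromosomal passenger complex, which corrects faulty kinetochore attachments, had 3 of its subunits among the genes that rose. Birc5, which encodes survivin, rose 2.01-fold, with pair differences of 1.53, 0.36 and 1.13 (adjusted p = 0.0388). Cdca8 rose 1.85-fold (1.37, 0.34 and 0.95; adjusted p = 0.0189). Incenp, the scaffold of the complex, rose 1.58-fold, by 0.23 in pair II and 0.65 in pair III (adjusted p = 0.0294). Aurkb, its kinase, differed by 0.92 and did not pass. Cep55, which recruits the abscission machinery to the midbody, had 9.70, 8.82 and 9.52 in GFP3 and 8.13, 8.51 and 8.11 in GFP4 (log2 1.09, SE 0.20, adjusted p = 0.0349, or 0.0794 without the block). Cit, which encodes citron kinase, differed by 0.95 (adjusted p = 0.0181) and was the one G2 and M phase gene that also passed without the block (adjusted p = 0.0412). Racgap1 rose 1.57-fold with pair differences of 0.93, 0.17 and 0.86 (adjusted p = 0.0191).

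Genes past the threshold that belong to none of the lists, and are named from their values, included Pbk, a mitotic kinase (log2 1.00), Cenpm, a centromere protein (0.96), Arhgap19, a GTPase-activating protein (0.91), Kpna2, an importin (0.83), Cdca2, which brings protein phosphatase to chromatin (0.82), Trip13, an ATPase of the spindle checkpoint (0.71), Lmnb1, which encodes lamin B1 (0.71), and Ran, the GTPase of nuclear transport and spindle assembly (0.45). Of 14 tubulin genes, Tuba8 alone rose. It had 9.72, 9.05 and 9.12 in GFP3 and 8.14, 8.31 and 8.36 in GFP4 (log2 1.02, SE 0.17, adjusted p = 0.0189; 0.0353 without the block). Mki67, a widely used proliferation marker, had 13.44, 12.44 and 12.71 in GFP3 and 11.74, 12.18 and 11.39 in GFP4. Its difference of 1.09 (SE 0.24) was without overlap and did not pass (adjusted p = 0.167).

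**Figure D2:**
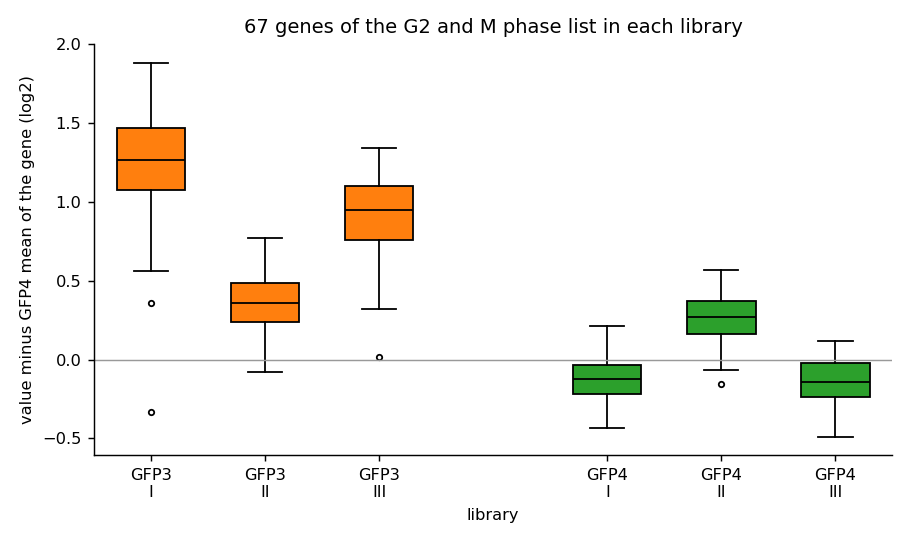
The 67 G2 and M phase genes in each library of GFP3 (left) and GFP4 (right), as the log2 value minus the GFP4 mean of the same gene; boxes span the quartiles, the line is the median, whiskers span the other genes and circles are outlying genes. GFP3 I stands highest and GFP3 II lies close to GFP4 II.

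Pair II differed from the other pairs over the whole mitotic list. The median level of the 67 genes was 11.01, 10.15 and 10.69 in GFP3 I, II and III, against 9.75, 10.09 and 9.57 in GFP4. The median pair differences were 1.38, 0.11 and 1.05, and 66, 49 and 66 of the 67 genes were higher in GFP3 within pairs I, II and III. GFP3 II was the lowest of its bin and GFP4 II the highest of its own, so the gap narrowed from both sides. In pair II the neutrophil and macrophage markers also went the other way from pair I. All 12 neutrophil markers were higher in GFP3 within pair II and 0 of 12 within pairs I and III, with median differences of -0.76, 0.99 and -0.47 in pairs I, II and III. The macrophage medians were -0.63, 2.25 and 0.85. The part of these other cells in the mitotic difference was not tested.

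DNA synthesis genes moved in the same direction by less. Of 46 S phase genes, 2 rose, 0 fell, 45 were positive and the median difference was 0.36, with pair medians of 0.63, 0.07 and 0.32. Prim1, the small subunit of DNA primase, had 11.29, 10.87 and 11.09 in GFP3 and 10.54, 10.59 and 10.56 in GFP4 (1.43-fold, adjusted p = 0.0349). Cdca7 had 12.68, 12.51 and 12.59 in GFP3 and 11.95, 12.21 and 12.07 in GFP4 (1.43-fold, adjusted p = 0.0189; 0.0353 without the block). Rrm2, a subunit of ribonucleotide reductase, was also without overlap. It differed by 0.61 and did not pass (adjusted p = 0.0728). The list had 0 called genes without GFP3 I, GFP3 III, GFP4 I or GFP4 III, 5 without GFP3 II and 15 without GFP4 II. It had 1 without the block.

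**Figure D3:**
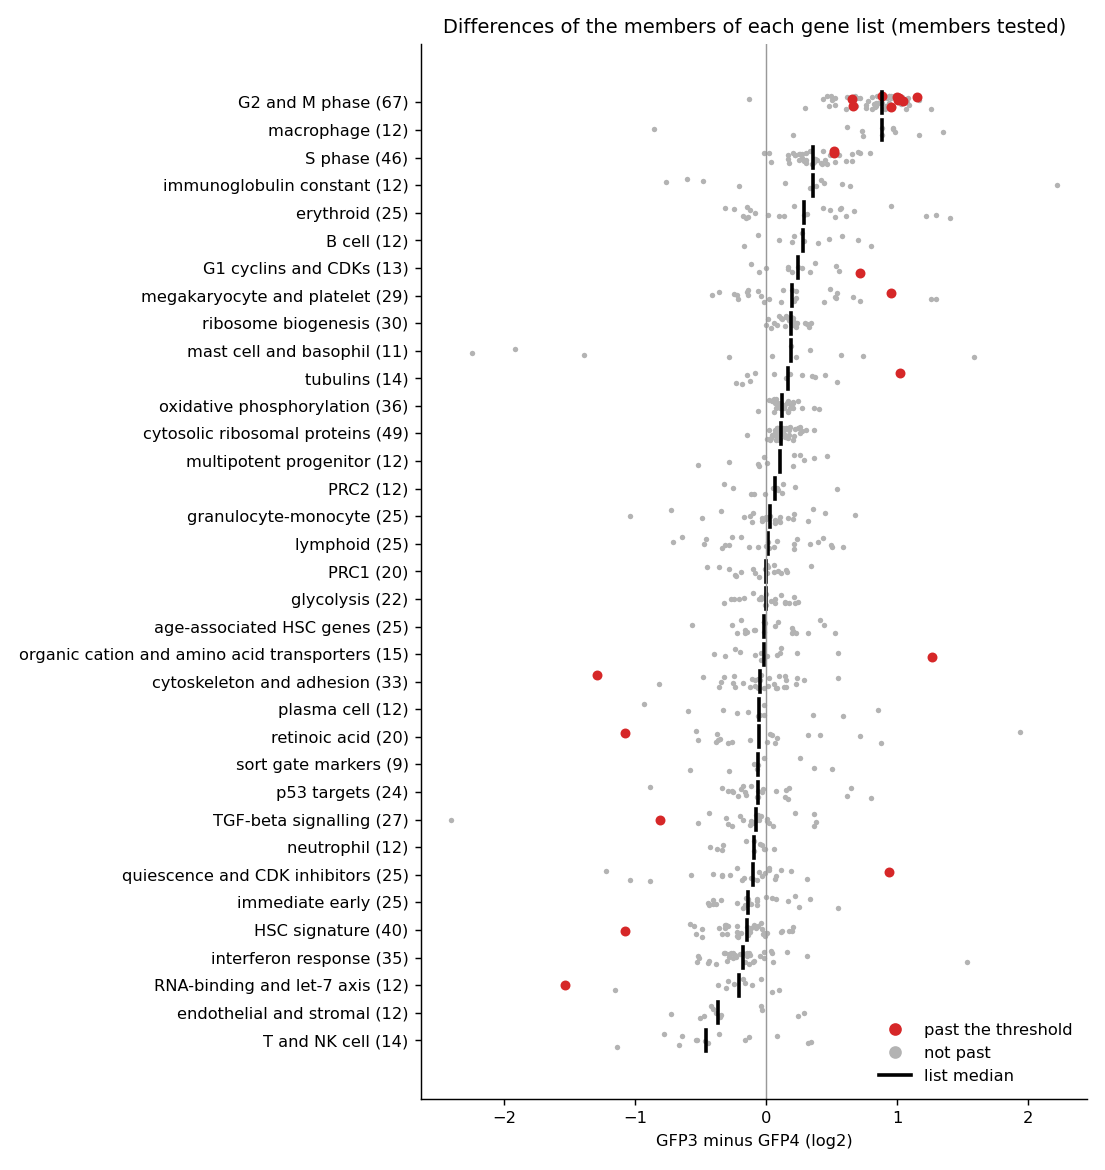
GFP3 minus GFP4 (log2, horizontal axis) for every tested gene of each list, with the list median and the genes that passed the threshold marked. The G2 and M phase list has the highest median, 0.89, next to the macrophage markers at 0.88, and the S phase list has a median of 0.36.

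Genes used by megakaryocytes, platelets and red cells were a smaller group. Itga2b encodes CD41, the integrin of megakaryocytes and platelets, and rose 1.93-fold. Its log2 value was 12.26, 11.74 and 12.18 in GFP3 and 10.86, 11.30 and 11.17 in GFP4 (log2 0.95, SE 0.16, adjusted p = 0.0326; 0.162 without the block). Mfsd2b, which exports sphingosine-1-phosphate from red cells and platelets, had 10.18, 9.34 and 9.39 in GFP3 and 8.05, 8.56 and 7.89 in GFP4 (2.77-fold, adjusted p = 0.0349, or 0.0712 without the block). Sox6, a transcription factor that silences embryonic globin, had 11.13, 10.95 and 11.10 in GFP3 and 10.41, 10.26 and 10.28 in GFP4 (1.68-fold, adjusted p = 0.0189; 0.0353 without the block). GFP3 stood above GFP4 in each of these genes, and the Sox6 pairs were close to each other at 0.73, 0.69 and 0.82.

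The wider lineage lists did not move as one. Of 29 megakaryocyte and platelet genes, 1 rose, 0 fell and 18 were positive, with a median of 0.19 and pair medians of 0.47, -0.09 and 0.26. Gp1bb, a subunit of the von Willebrand factor receptor, had 8.30, 7.15 and 8.05 in GFP3 and 6.45, 6.55 and 6.72 in GFP4 and did not pass (log2 1.26, SE 0.26, adjusted p = 0.0641). Of 25 erythroid genes, 0 rose, 0 fell and 17 were positive, with a median of 0.29 and pair medians of 0.56, -0.28 and 0.55. Epor, the erythropoietin receptor, was 8.77, 8.76 and 8.84 in GFP3 and 7.42, 8.34 and 7.75 in GFP4 (log2 0.95, SE 0.19, adjusted p = 0.0579). Gata1, the transcription factor shared by both lineages, was 8.58, 7.41 and 8.03 in GFP3 and 5.91, 7.36 and 6.85 in GFP4 (log2 1.30, SE 0.40, adjusted p = 0.387). Both were without overlap, and GFP4 II was the highest GFP4 library for each. The members named here were positive, while 11 megakaryocyte and platelet genes and 8 erythroid genes were negative. Without overlap, 9 genes of the megakaryocyte and platelet list lay above GFP4 and 2 below, and 3 and 1 of the erythroid list. The shares over all tested genes were 5.55% above and 5.84% below. Of 25 granulocyte and monocyte genes and 25 lymphoid genes, 0 rose and 0 fell in either list, with medians of 0.03 and 0.02.

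Slc22a3 and Gstm2 also passed with each library left out in turn. Slc22a3 (chr17:12418960-12507704, minus strand) encodes an organic cation transporter and was the only one of 15 transporter genes listed that rose. The list was chosen with this gene already named for the comparison. Slc22a3 had a higher value in GFP3 within each pair. It had 10.66, 10.13 and 10.09 in GFP3, against 8.92, 9.34 and 8.81 in GFP4. The rise was 2.41-fold (log2 1.27, SE 0.16, adjusted p = 0.0032; 0.00594 without the block). Gstm2 (chr3:107981702-107986453, minus strand) encodes a glutathione transferase with close paralogs, between which reads may be divided. It had 9.07, 9.56 and 9.86 in GFP3 and 8.21, 7.99 and 8.72 in GFP4 (2.28-fold, adjusted p = 0.00179; 0.136 without the block). For Gstm2, pair II showed the largest difference, unlike the mitotic genes.

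The remaining genes that rose had no shared list. Dnajc6, which encodes auxilin of clathrin uncoating, rose 2.30-fold (adjusted p = 0.0349, or 0.316 without the block). Ptn, which encodes the growth factor pleiotrophin, rose 1.93-fold (adjusted p = 0.0488, or 0.0794 without the block). Tmem98, a membrane protein, rose 1.65-fold (adjusted p = 0.0189, or 0.0387 without the block). Ndrg1, a stress-responsive gene, had 12.24, 12.52 and 12.43 in GFP3 and 11.93, 11.79 and 11.90 in GFP4 (1.43-fold, adjusted p = 0.0173; 0.0353 without the block). Slc25a5, the mitochondrial ADP/ATP carrier, rose 1.30-fold (adjusted p = 0.0488, or 0.124 without the block). Treml4, a receptor of myeloid cells, had 6.73, 7.11 and 6.77 in GFP3 and 4.85, 5.14 and 4.07 in GFP4 (adjusted p = 0.0388, or 0.368 without the block). The predicted gene Gm13237 rose 1.77-fold. Gm10601 was at the lowest value of the file, 0.14, in all GFP4 libraries and at 3.43 to 3.78 in GFP3, so no fold is given. Its means in GFP2 and GFP1 were 0.14 as well, and its mean level was 0.078 ppm. Outside GFP3, only Total I and III reached a linear value of 1, so it met the filter only through GFP3. Its place among the higher genes is therefore no support by itself (adjusted p = 0.0545 without the block).

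Igkv9-120, member 120 of family 9 of the immunoglobulin kappa variable segments, also passed. It had 3.84, 5.40 and 4.76 in GFP3 and 0.35, 3.78 and 1.40 in GFP4 (log2 2.83, SE 0.38, adjusted p = 0.00374). Without the block its adjusted p was 0.635, and reads may be shared with similar segments. Immunoglobulin genes as a whole summed to 304, 622 and 141 ppm in GFP3 and 112, 506 and 759 ppm in GFP4, with no common direction over the pairs.

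Igf2bp2 had the largest difference of the genes that fell. It lies at chr16:22059009-22163299 on the minus strand and encodes an RNA-binding protein of the let-7 and Lin28 axis. It had 8.63, 9.41 and 9.45 in GFP3, against 10.70, 10.56 and 10.85 in GFP4. All GFP3 libraries were below all GFP4 libraries by more than 1 log2 unit, and expression in GFP3 was 0.345 times that in GFP4 (log2 -1.54, SE 0.18, adjusted p = 0.00179; 0.0167 without the block). Of 12 genes of that axis, Igf2bp2 alone fell, 0 rose and 10 were negative.

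Ahnak (chr19:8989284-9076914, plus strand), which encodes a giant scaffold protein at the cell cortex, had 9.82, 10.66 and 10.28 in GFP3 and 11.65, 11.44 and 11.54 in GFP4. Its log2 difference was -1.29 (SE 0.16, adjusted p = 0.00186; 0.0143 without the block). Of 33 cytoskeleton and adhesion genes it was the only one that fell, and 0 rose. Net1, a guanine nucleotide exchange factor, had 12.21, 12.21 and 12.17 in GFP3 and 12.75, 12.96 and 12.74 in GFP4 (log2 -0.62, adjusted p = 0.0349, or 0.0794 without the block). The Net1 libraries were tight within each bin and apart between them. Even so, Net1 passed in only 1 of the 6 fits with a library left out.

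Cyp26b1 (chr6:84571414-84593908, minus strand), which degrades retinoic acid, had 9.44, 10.08 and 10.09 in GFP3 and 10.89, 10.97 and 10.97 in GFP4 (log2 -1.08, SE 0.16, adjusted p = 0.00489; 0.0382 without the block). Of 20 retinoic acid genes tested, it alone fell. Rarb, a retinoic acid receptor, was without overlap and did not pass (log2 -0.54, adjusted p = 0.394). Fgfr3 (chr5:33721674-33737068, plus strand), a receptor for fibroblast growth factors, had 9.12, 9.57 and 9.88 in GFP3 and 10.44, 10.40 and 10.79 in GFP4 (log2 -1.02, SE 0.14, adjusted p = 0.00374; 0.0712 without the block). Ltbp4, which stores latent TGF-beta in the matrix, was 9.54 to 9.86 in GFP3 and 10.42 to 10.70 in GFP4 (log2 -0.81, adjusted p = 0.0349, or 0.135 without the block). It passed in only 1 of the 6 fits with a library left out. Cx3cl1, the chemokine fractalkine, was 9.24 to 9.70 in GFP3 and 10.22 to 10.50 in GFP4 (log2 -0.80, adjusted p = 0.0283, or 0.0998 without the block). Of 27 genes of TGF-beta signalling, Ltbp4 alone fell and 0 rose. Ski, a repressor of that pathway, had 8.81, 9.13 and 11.90 in GFP3 and 12.55, 12.30 and 12.21 in GFP4, so that GFP3 III was close to GFP4 and the difference of -2.41 did not pass (adjusted p = 0.226).

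Gbp9, an interferon-induced guanylate-binding protein, had 11.06, 11.15 and 10.91 in GFP3 and 11.87, 12.14 and 12.07 in GFP4. Its log2 difference was -0.99 (SE 0.14, adjusted p = 0.00489; 0.0387 without the block), and GFP3 lay below GFP4 in every pair. Gbp genes are near copies of each other, so reads may be divided among them. Of 35 interferon response genes, which did not include Gbp9, 0 rose, 0 fell and 29 were negative, with a median of -0.18 and pair medians of -0.19, -0.14 and -0.25. Iigp1, an interferon-induced GTPase, had 12.18, 12.14 and 12.52 in GFP3 and 12.71, 12.72 and 12.96 in GFP4 (log2 -0.51, SE 0.11, adjusted p = 0.068). In 16 of the 35, all GFP3 libraries lay below all GFP4 libraries, and in 2 all lay above. Over all tested genes the shares were 5.84% below and 5.55% above (9.2% and 9.07% at a mean of at least 10 ppm). The predicted gene Gm12185 fell by 0.94, Taf4, a subunit of the transcription factor TFIID, by 1.35, and Pqlc3, a membrane protein, by 0.53.

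**Figure D4:**
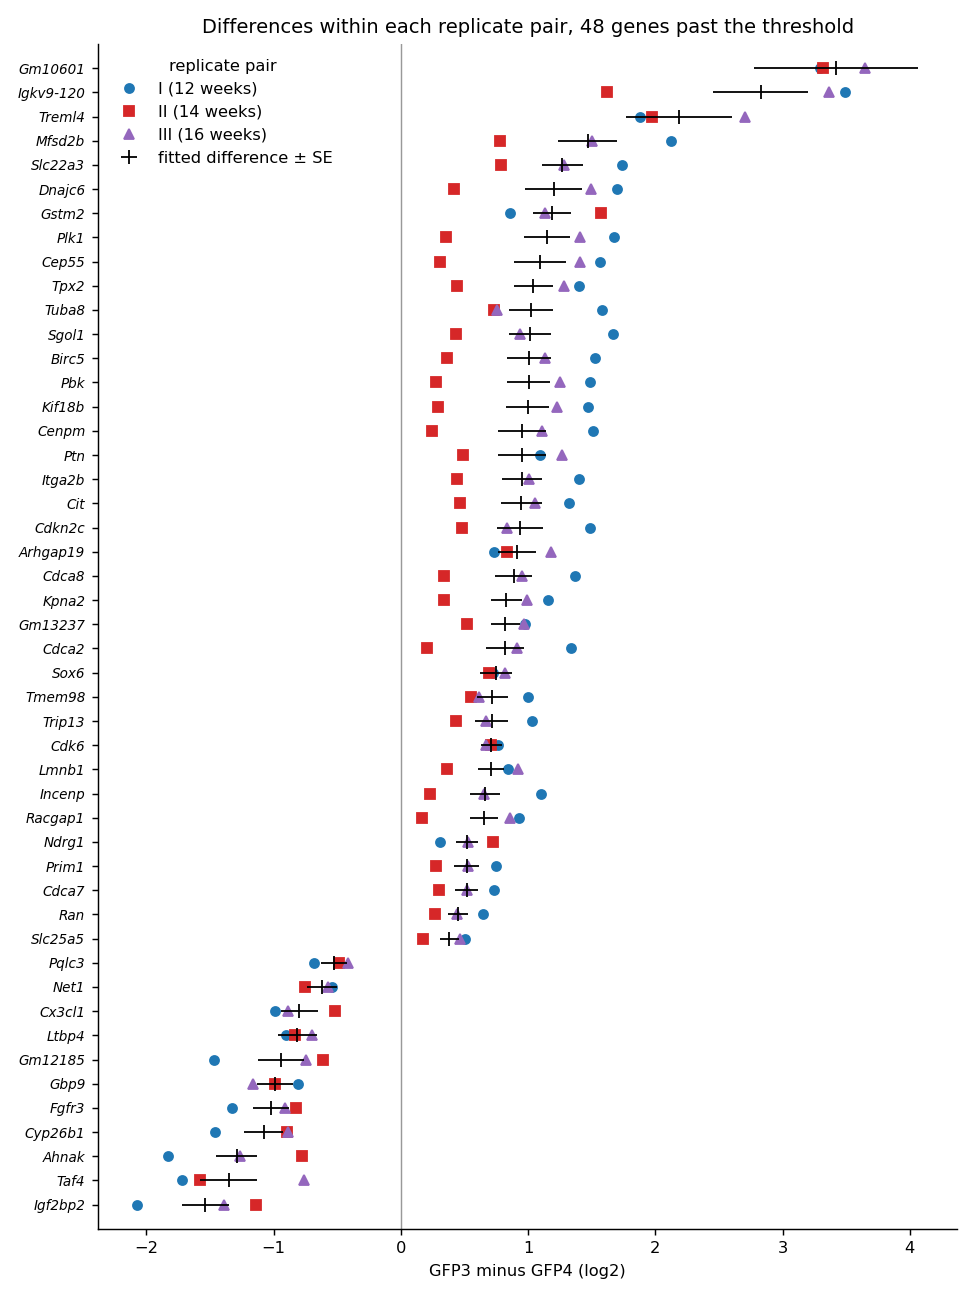
GFP3 minus GFP4 (log2) of the genes past the threshold in pairs I, II and III, one point per gene and pair, with the fitted difference and its SE as a cross. Every point of a higher gene is above 0 and every point of a lower gene below 0, and pair II lies closest to 0 for most of the higher genes.

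Stem cell genes were measured mostly a little lower in GFP3. Of 40 genes of the HSC signature, Cyp26b1 fell, 0 rose and 34 were negative, with a median of -0.15 and pair medians of -0.15, -0.14 and -0.16. Mllt3, a chromatin reader needed by HSCs, had 12.91, 13.24 and 13.37 in GFP3 and 13.63, 13.52 and 13.84 in GFP4 (log2 -0.49, SE 0.10, adjusted p = 0.0579). Hlf was 14.29, 14.48 and 14.41 in GFP3 and 14.63, 14.83 and 14.66 in GFP4 (log2 -0.31, SE 0.09, adjusted p = 0.189). Both were without overlap and neither passed. Procr, which encodes the HSC surface protein EPCR, overlapped (log2 -0.34, SE 0.19, adjusted p = 0.862). Mecom, the transcription factor EVI1, differed by -0.13 (adjusted p = 0.969), Slamf1 by -0.09 and Kit by -0.02. Outside the lists, Glipr2 (log2 -0.53, adjusted p = 0.0568) and the kinase Map3k3 (log2 -0.48, adjusted p = 0.0591) were below GFP4 without overlap and did not pass.

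Of 30 ribosome biogenesis genes, 29 were positive with a median of 0.19. Of 36 oxidative phosphorylation genes, 35 were positive with a median of 0.12, and of 49 cytosolic ribosomal protein genes, 48 were positive with a median of 0.11. None of these 3 lists had a gene past the threshold. Nor did the lists of glycolysis, p53 targets, immediate early genes, age-associated HSC genes, multipotent progenitors, gate markers, B cells, plasma cells, T and NK cells, mast cells, endothelial cells and immunoglobulin constant genes, whose medians lay between -0.46 (T and NK cells) and 0.35 (immunoglobulin constant genes). Polycomb genes went both ways. Ezh2, the PRC2 methyltransferase of dividing cells, differed by 0.54 (adjusted p = 0.0929), and its paralog Ezh1 by -0.33 (adjusted p = 0.312). Both were without overlap. The macrophage list had 11 of 12 markers positive and a median of 0.88. Its median was -0.30 without GFP4 II, and 0 of its genes passed.

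Size alone picked out different numbers of genes in each pair. At a mean of at least 10 ppm, 10337 genes were left. Of these, 221 (2.14%) were higher by at least 1 log2 unit in GFP3 in pair I, 109 (1.05%) in pair II and 141 (1.36%) in pair III. Lower by as much were 132 (1.28%), 58 (0.561%) and 49 (0.474%). In all 3 pairs at once, 10 (0.0967%) were higher and 4 (0.0387%) lower. Over all tested genes, low ones included, the shares were 10.9%, 10.3% and 12.2% higher, 9.72%, 9.16% and 11.7% lower, and 0.479% and 0.386% in all 3 pairs. No overlap at 10 ppm was seen for 9.07% above and 9.2% below, and an unadjusted p under 0.05 for 12.4%. Among the 37 genes that rose, the largest change was in pair I for 29 (78.4%) and the smallest in pair II for 31 (83.8%). These shares were 38.1% and 37.6% of all tested genes, and 45.4% and 41.4% at a mean of at least 10 ppm. For the 11 lower genes they were 81.8% and 45.5%. The median pair differences of the 37 higher genes were 1.34, 0.44 and 0.99, and those of the 11 lower genes were -1.32, -0.82 and -0.89.

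The genes of this step were then read in the bins below it. GFP1 against GFP2, the last step, shares no library with GFP3 against GFP4. Both steps came from the same fit and share each gene's estimate of spread. A pass in the last step is therefore not independent of a pass in the first. Of the 37 higher genes, 33 had the same sign in the last step and 28 also passed there, where 3.7% of all genes were higher. Of the 11 lower genes, 9 had the same sign and 7 passed, where 5.09% of all genes were lower. None passed in the opposite direction. Of the 37, 34 had a mean of at least 10 ppm, and of the 11, 10 did. Among all 10337 genes at that mean, 1506 passed in the last step with the sign of their first step and 384 with the other sign. Over all 27994 tested genes the counts were 1879 and 581. Over all tested genes 56.4% had the same sign in both steps, and 65.3% of those of at least 10 ppm. By their means over all 4 bins, 32 of the 37 rose and 9 of the 11 fell at every step from GFP4 to GFP1. Of all tested genes 26.9% went one way throughout, and 48.3% of those of at least 10 ppm. The called genes were chosen by their first step, and the middle step uses the GFP3 libraries again. This count therefore describes the means and does not test grading.

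Cdk6 was graded in this way. Its difference was 0.61 in GFP2 against GFP3 (adjusted p = 0.011) and 0.99 in GFP1 against GFP2 (adjusted p = 7.35e-07). The means of Mfsd2b in order of falling label were 8.17 (GFP4), 9.64 (GFP3), 10.86 (GFP2) and 13.04 (GFP1). The middle step itself called 3 genes higher and 2 lower, 0.0107% and 0.00714% of genes. It shares the GFP3 libraries with the first step, so no count of agreement between these steps alone is given. The test of the first against the middle step passed for 1 gene, Igkv9-120 (0.00357%). The test of the first against the last step passed for 192 genes with the more positive difference in the first (0.686%) and 143 with the more negative (0.511%).

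**Figure D5:**
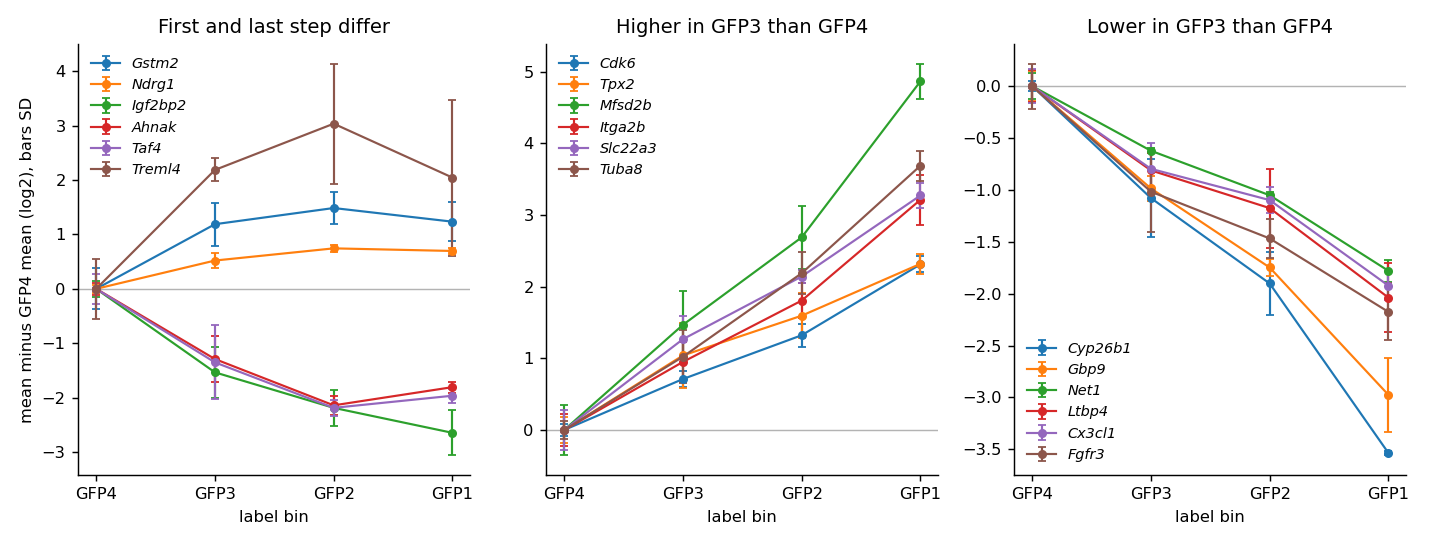
Mean log2 value of 3 libraries minus the GFP4 mean of the gene (vertical axis, bars SD), by bin in order of falling label (horizontal axis), for genes whose first and last step differed by test (left), other genes higher in GFP3 (middle) and other genes lower in GFP3 (right). Cdk6 rises at each step, whereas Gstm2 is lowest in GFP4 and nearly level below it, with means of 9.50, 9.79 and 9.54 in GFP3, GFP2 and GFP1.

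For some genes called at the first step, the measured change was smaller at the last, and a test of the difference passed. They were chosen by their first step, which is part of that difference, so the choice favours a larger first step. Gstm2 averaged 9.50 in GFP3 and 8.31 in GFP4, and 9.54 in GFP1 and 9.79 in GFP2. Its first step exceeded its last by 1.44 (SE 0.21, adjusted p = 0.00101). Ahnak averaged 10.25 in GFP3 and 11.54 in GFP4, and 9.73 in GFP1 and 9.40 in GFP2, and the steps differed by -1.63 (SE 0.23, adjusted p = 0.000864). The difference was -1.08 for Igf2bp2 (adjusted p = 0.0477), -1.57 for Taf4 (0.0143), 0.57 for Ndrg1 (0.0212) and 3.18 for Treml4 (0.00859). Genes outside the 48 also differed. Npm3, a nucleolar chaperone, had a first step above its last by 1.57 (adjusted p = 0.00795) and Raly, an RNA-binding protein, by 1.88 (adjusted p = 0.0493). Neither passed at the first step (log2 0.74 and 0.87, limma adjusted p = 0.189 and 0.376). Both fell past the threshold at the last step (log2 -0.83 and -1.01, limma adjusted p = 0.0144 and 0.0447). The largest differences the other way were immunoglobulin genes, with Ighg2b at a mean of 16.71 in GFP1 and 4.87 in GFP2, and no difference between GFP3 and GFP4 past the threshold (log2 -0.48).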

How the data were processed

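RNA was converted to full-length cDNA with SMART-Seq v4 and tagmented with Nextera XT, per the labels' protocols. The submitters' processing notes list GRCm38 and kallisto 0.43.0, a pseudoaligner. Gene summarisation and any offset added to the values are not stated in those sources. The authors deposited log2 values, 1 row per gene symbol. Their columns share a single distribution, so they are quantile normalized, which removes differences in total RNA. Read depth is unknown, so no counting interval is given. Low genes are understated on this scale. The lowest value, 0.14, was taken by 4041 to 7923 genes in each of the 6 libraries.

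Linear values undo the logarithm and subtract 1, and ppm are their share of a library's sum. One mean per group and replicate number as a block were fitted to the 15 libraries of the series by limma (3.58.1, R 4.3.3) with intensity trend and robust moderation (residual df 8), so that the other 9 libraries add to the estimate of spread. P-values were adjusted by Benjamini-Hochberg over 27994 genes. Pairing rests on the labels, which give libraries of one number the same age and doxycycline time. Deviations from the bin means correlated at 0.15, -0.10 and 0.20 within pairs I, II and III, no higher than for some libraries of different number (GFP3 I with GFP4 II 0.16, GFP3 II with GFP4 III 0.19), and 21 of 30 same-numbered pairs over the 5 groups were over 0.1. Libraries were about as alike between the bins as within them (Pearson r of 0.947 to 0.972 between GFP3 and GFP4 libraries and 0.964 to 0.974 within a bin, across genes, which are not independent replicates).

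Members and lists were chosen with earlier results of these data known. Slc22a3, Tuba8, Cit, Igf2bp2, Ahnak and Cyp26b1 were already named for this comparison. A call of any of them within its list is therefore no support for that list. The rule for named genes took up to 12 each way by size among genes past the threshold. They needed the same sign in every pair, a mean of at least 10 ppm and a named symbol. Where fewer than 12 passed, genes of smallest p not past the threshold filled the list (Glipr2, Mllt3 and Map3k3). The rule also took the list genes of smallest p, the largest differences between steps, and a few HSC genes. The other genes past the threshold, and list members beyond that rule, were named after their values were seen; some genes the rule gives are not reported here. Promoter sequences are RefSeq's; gene coordinates are GENCODE's for GRCm38. Alternatives were no block, smaller sets of libraries, other scalings, filters and offset, array weights, non-robust moderation, and each library left out. Leaving out both libraries of a replicate number was added after seeing the data.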

Additional observations from a re-analysis of the deposited data

Results flagged for a closer look

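For 7 genes past the threshold in GFP3 against GFP4, the limma test of the first minus the last step (GFP1 against GFP2) also passed. They were chosen by their first step, which is part of the tested difference. The test is therefore not independent of that choice. The difference was 3.18 for Treml4, 1.44 for Gstm2 and 0.57 for Ndrg1, which rose in GFP3 and had last-step differences of -0.99, -0.25 and -0.05. It was -1.63 for Ahnak, -1.57 for Taf4 and -1.08 for Igf2bp2, which fell in GFP3 and had last-step differences of 0.33, 0.22 and -0.46. Igkv9-120 differed by -9.45, because it averaged 14.07 in GFP1 and 1.78 in GFP2. All immunoglobulin genes together summed to 49250 to 52844 ppm in GFP1 and 94.5 to 180.8 ppm in GFP2, so the last step of this gene sits beside a change of its whole family. Without the block, the adjusted p of the difference was 0.115 for Gstm2, 0.166 for Treml4, 0.0686 for Taf4 and 0.194 for Igf2bp2.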

How the results depend on the processing

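Directions of the 48 genes did not reverse under any alternative run. This says little, since these genes did not overlap between the bins and went the same way in every pair. The counts moved. Beside 37 higher and 11 lower genes with 2 S phase and 9 G2 and M phase genes higher, no replicate block gave 12 and 4 (1 and 1). The 6 libraries alone gave 1 and 1 (0 and 0), of which 0 and 1 were among the 37 and 11, and 9 libraries without GFP1 and Total 18 and 20 (1 and 1), of which 11 and 11 were. Array weights gave 262 and 129 (17 and 52). No filter left 7 lower genes, a 10 ppm filter 20 lower and 14 G2 and M phase genes, and non-robust moderation 1 S phase gene. Leaving out each library, or both of a number, gave 3 to 228 higher and 2 to 57 lower genes, 0 to 16 of S phase and 0 to 63 of G2 and M phase. Kit, at -0.02, ranged from -0.17 to 0.083 and was positive without GFP4 II or III or without number II or III.

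The first against the middle step called 1 gene, 0 without the block, with 9 libraries, with immunoglobulin genes removed or with an offset of 0.1, 3 with array weights, and 0 to 1 either way with libraries left out. The first against the last step called 192 and 143. This was 95 higher without the block, 93 lower with immunoglobulin genes removed, and 455 and 309 with array weights. With libraries left out it was 49 to 221 and 94 to 153. Pair differences of at least 1 numbered 3044, 2877 and 3415 higher and 2721, 2564 and 3283 lower in pairs I, II and III over all genes (134 and 108 in all pairs), against 221, 109 and 141 higher and 132, 58 and 49 lower at 10 ppm (10 and 4). The median of all genes moved by less than 0.1 under every scaling. Having 3 libraries a bin and unknown depth limit all counts, and a gene that did not pass is not shown to be equal.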
